A study of Homo sapiens with 16 samples.

Results

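Alu elements that lay at the centre of open chromatin were examined for H3K27ac, the acetylated histone that marks promoters and enhancers in use. The deposited table held 151654 regions, each a window of 1000 bp around a merged ATAC-seq peak of THP-1 cells, and a region was taken as an Alu region when its detailed annotation named a SINE of the Alu family. This rule used the position alone and no H3K27ac value, and it found 6816 regions with 46 repeat names, or 4.49% of the table. THP-1 is a human monocytic leukemia line. The study asked how loss of USP18, an ISG15 isopeptidase that also limits signaling from the type I interferon receptor, changes regulatory elements with and without interferon. WT cells, labelled Cas9 only, had received a control guide, and USP18KO cells had received guides against USP18 and were grown from sorted single cells, so a difference between the genotypes cannot be told apart from a difference between clones. Cells were left untreated or received IFNα (IFN below) at 1000 U/ml for 6 h, and each of the 4 groups had 2 H3K27ac ChIP-seq libraries.

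Alu elements are short interspersed repeats derived from 7SL RNA and are found in primates. A full element is a dimer, with a left arm that carries the A and B boxes of an internal RNA polymerase III promoter, an A-rich stretch in the middle, a right arm and an A-rich tail. AluJ is the oldest class, AluS is intermediate and AluY is the youngest, while FAM, FLAM and FRAM are monomers that gave rise to the dimer. Inverted pairs of Alu copies in a transcript fold into double-stranded RNA, which ADAR1 edits and which sensors such as MDA5 and PKR can bind, and several of these proteins are made from interferon-stimulated genes (ISGs).

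By class, 4124 regions were AluS, 1832 AluJ, 752 AluY and 101 monomers, and 7 carried the name Alu with no subfamily. The most frequent names were AluJb with 853, AluSz with 782, AluSx1 with 620 and AluY with 583 regions. In the table's annotation, 3931 lay in introns and 2885 between genes. None was in a promoter, exon or CpG island, because the annotation tool assigns those classes before repeats. Only 359 lay within 3000 bp of a transcription start site (TSS). The median GC share of the Alu windows was 44.7%, against 46.1% for all regions. Of the 8 ATAC-seq peak sets that were merged, all 8 held 32.3% of Alu regions and 47.7% of all regions.

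The label was checked against short stretches of the Alu consensus, called landmarks here. These were GGCTCACGC of the A box, TCGAGACCA of the B box, AAATACAAA of the A-rich middle, CAGTGAGCC and CACTGCACT of the right arm, and an unbroken run of 12 A. At least 1 landmark stood within the central 200 bases of 5229 Alu regions (76.7%), counting either strand, and of 3.65% of the other regions. The share was 96.1% in AluY, 81.0% in AluS and 61.2% in AluJ. The landmarks were also placed relative to the window's centre, each read along the strand of its own nearest match. A match was not assigned to the element at the centre. Each median covers only the windows with that landmark within 400 bp, from 25.6% to 61.9% of members. The nearest A box lay at a median of -174 bp from the centre (interquartile range -223 to -12 bp), and the nearest B box at -130 bp. An A box was found within 400 bp of the centre in 27.1% of members. The right arm stretches lay at 13 and 30 bp, and the A run at 67 bp. The landmarks nearest to the centre were those of the right arm, and those of the polymerase III promoter lay farthest upstream. Since Alu copies are alike, each window was compared with the genome in stretches of 100 bases. All stretches were unique in 6052 windows (88.8%), and 132 windows were under 90% unique, with AluY highest at 4.65% of its members.

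**Figure D1:**
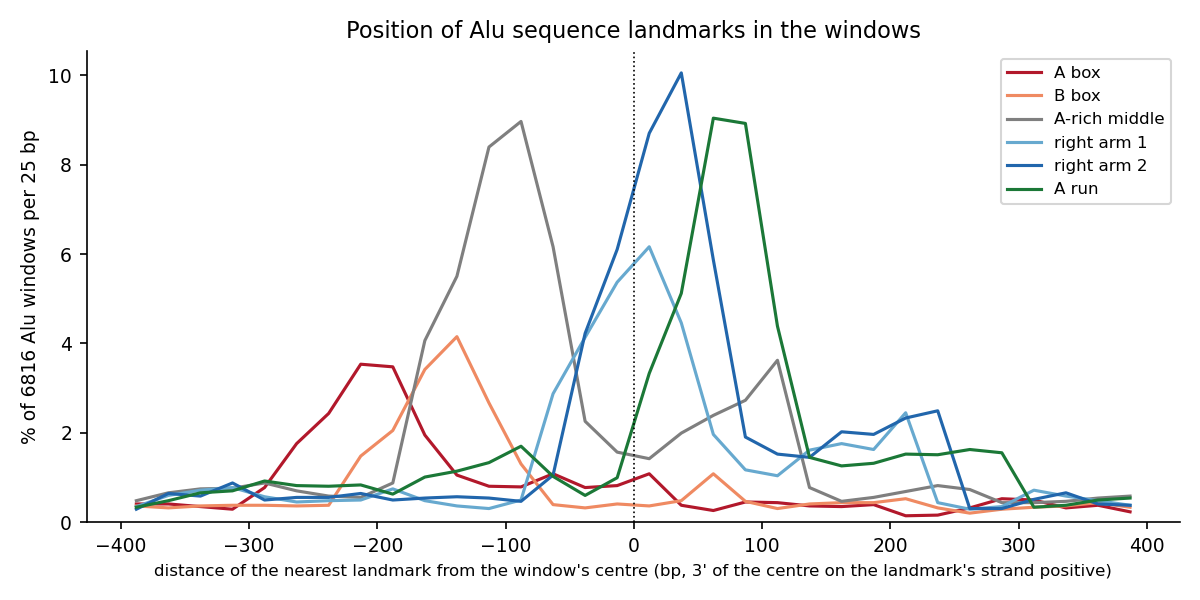
Position of 6 Alu landmarks around the centre of 6816 Alu windows. The x axis gives the distance in bp of the nearest match within 400 bp, positive where it lay 3′ of the centre on its own strand. The y axis gives the percent of Alu windows per bin of 25 bp. The A and B boxes peak to the left of the centre, the right arm stretches at the centre and the A run to the right.

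Between 9046140 and 12935500 tags per library fell in the regions, and levels are given as CPM, tags scaled to a common library size with edgeR's TMM factors. Of 11 monocytic marker genes, 10 had a region within 1000 bp of their TSS, with a summed level of 215 to 413 CPM per library. The 5 erythroid and the 4 epithelial or liver markers had none, and the T cell, B cell and fibroblast lists had 4 promoter regions in all, with at most 9.60 CPM per list and library. The promoter of USP18, itself an ISG, had 7.62 to 8.47 CPM in untreated cells of both genotypes, which does not check the knockout because a guide-made lesion need not change H3K27ac. The level of the monocytic list was higher in USP18KO libraries (370 CPM and over) than in WT libraries (231 CPM and under), and the part of this difference in the results below was not tested. The shift was not particular to that list. Between the untreated genotypes its median log2 fold change was 0.56, beside 0.65 for T cell, 0.88 for B cell and 0.65 for fibroblast promoters. Regions in promoters, exons or CpG islands had a median of 0.30.

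Alu regions carried a low H3K27ac signal, with a small number of members far above the rest. In untreated WT cells the median Alu region had 1.76 and 1.82 CPM in replicates 1 and 2, and 95% of members were under 18.9 and 19.3 CPM. The highest reached 211 and 206 CPM. All regions had a lower median in the same libraries, 1.55 and 1.54 CPM, but a higher upper end, with 95% under 28.9 and 28.5 CPM. AluY members had a median of 2.45 and 2.48 CPM in untreated WT cells, above AluS with 1.76 and 1.82 and AluJ with 1.65 and 1.72 CPM. The AluS and AluJ medians lay next to each other, about 1 tag apart, and were equal in 1 IFN treated WT library. AluY had the highest median of the 3 in each of the 8 libraries. Outside promoters, exons and CpG islands, the other large classes had lower medians in untreated WT cells. These were 1.36 and 1.45 CPM for L2 and MIR, 1.34 and 1.36 CPM for LINE-1 and 1.09 and 1.14 CPM for intergenic regions outside repeats. The filter on low counts, at least 10 counts in at least 2 libraries, kept 6015 Alu regions (88.2%) and 81.3% of all regions.

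The share of each library's tags that fell in Alu regions separated the genotypes and not the treatments. It was 3.36% and 3.46% in untreated WT cells and 3.30% and 3.41% in IFN treated WT cells. It was 2.84% and 2.88% in untreated and 2.81% and 2.91% in IFN treated USP18KO cells. All 4 USP18KO libraries were below all 4 WT libraries. Promoters, exons and CpG islands took 42.9% to 44.8% of tags in WT and 50.1% to 51.1% in USP18KO libraries. Among tags outside those classes the Alu share was 5.97% to 6.10% in WT and 5.70% to 5.93% in USP18KO libraries, so the gap between the genotypes was narrower on that base. These shares are given as descriptions.

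In TMM-scaled CPM, the sums of all 3 classes were higher in IFN treated than in untreated USP18KO cells, without overlap. The shares of tags did not all go this way. AluJ had 0.687% and 0.690% of tags in untreated and 0.642% and 0.670% in IFN treated USP18KO cells. AluS overlapped, with 1.65% and 1.68% in untreated and 1.61% and 1.67% in IFN treated USP18KO cells. Summed over its 752 members, AluY had 4787 and 4814 CPM in untreated WT, 4819 and 4839 CPM in IFN treated WT and 4703 and 4840 CPM in untreated USP18KO cells, and 5853 and 5923 CPM in IFN treated USP18KO cells. AluS had 17186 and 17629 CPM in untreated and 18626 and 18948 CPM in IFN treated USP18KO cells, against 18394 and 18758 CPM in untreated WT cells. AluJ had 7143 and 7239 CPM before and 7404 and 7600 CPM after IFN in USP18KO cells, below its 8309 and 8410 CPM in untreated WT cells. By these scaled sums, AluY and not AluJ or AluS stood clear of every library of the other 3 groups in IFN treated USP18KO cells. This depended on the scaling and is a description with no test. By share of tags AluY had 0.509% and 0.523% in IFN treated and 0.453% and 0.462% in untreated USP18KO cells. Its shares of 0.504% and 0.514% in untreated and 0.506% and 0.520% in IFN treated WT cells overlapped the former. The AluY rise between the USP18KO groups was 1117 CPM, and its 5 largest contributions made up 32.2% of it, while the median log2 fold change of tested AluY members was 0.06.

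**Figure D2:**
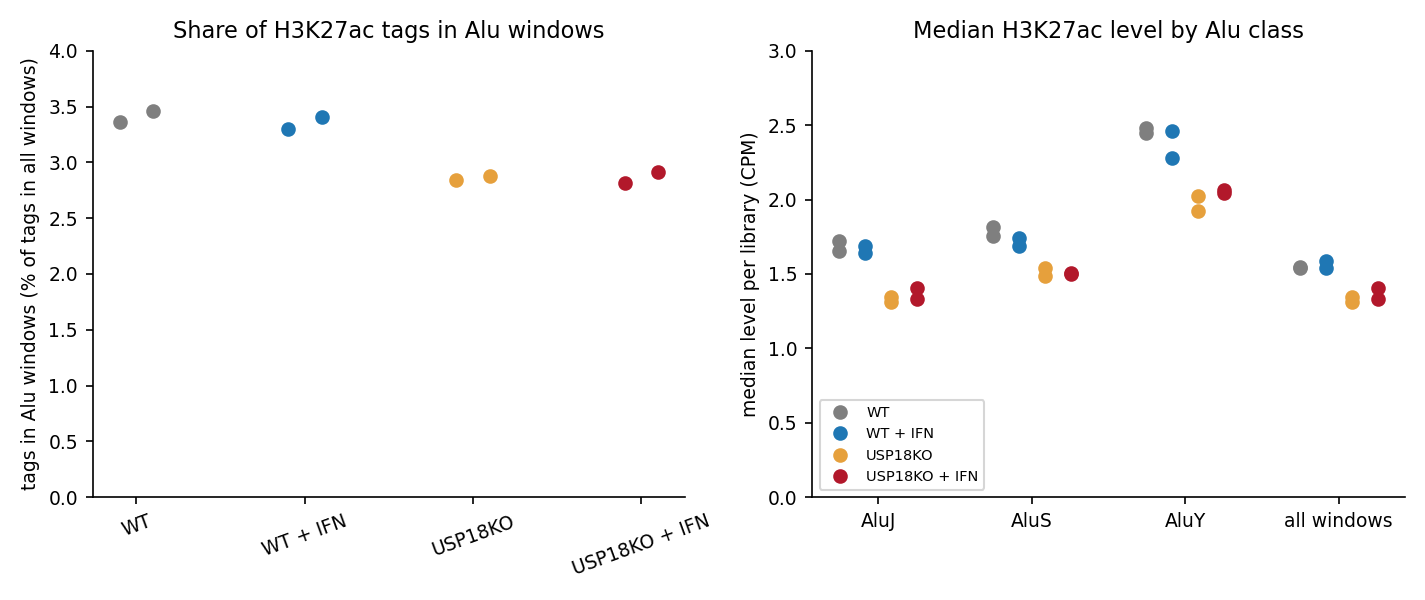
H3K27ac in Alu windows by library. Left, tags in Alu windows as a percent of tags in all windows, 1 point per library and 2 per group, with WT libraries at 3.30% to 3.46% and USP18KO libraries at 2.81% to 2.91%. Right, the median level in CPM of AluJ, AluS, AluY and all windows in each library, with AluY above AluS and AluJ in every library.

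IFN changed few Alu regions in WT cells. A region was called when its log2 fold change exceeded 1 in size with an adjusted p under 0.05 in the quasi-likelihood test of edgeR, adjusted by the method of Benjamini and Hochberg over all 123276 tested regions. By this rule 12 Alu regions rose (0.200% of those tested) and 3 fell (0.0499%), where 0.344% of all regions rose and 0.0381% fell. At an unadjusted p under 0.05, 210 of the 6015 tested Alu regions had higher and 288 lower values. Of all 123276 tested regions, 5576 had higher and 5478 lower values. The median log2 fold change was -0.03 for Alu and -0.01 for all regions.

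The largest rise was at an AluJb in an intron of SPTLC2, a subunit of serine palmitoyltransferase (chr14:77553414-77554414, nearest RefSeq start ISM2). It had 5.79 and 5.45 CPM in untreated and 28.3 and 27.4 CPM in IFN treated WT cells, and 8.47 and 10.3 CPM in untreated and 106 and 102 CPM in IFN treated USP18KO cells. The groups did not overlap, and the log2 fold change in WT cells was 2.31 (SE 0.15, adjusted p = 2.5e-22, edgeR). The next was an AluSx4 in an intron of LIMD1, a LIM domain protein (chr3:45668056-45669056), with 0.723 and 0.454 CPM before and 2.68 and 1.95 CPM after IFN in WT cells. This rise of 1.98 (SE 0.45, adjusted p = 0.0075, edgeR) rested on 7 and 5 counts in the untreated libraries, and in 3 of the 4 fits without 1 of the libraries compared the adjusted p was 0.058, 0.26 and 0.30. The third, an AluSq2 near the olfactory receptor gene OR4D9 (chr11:59510174-59511174), went from 2.27 and 2.63 to 8.92 and 8.62 CPM, a log2 fold change of 1.83 (SE 0.24, adjusted p = 1.8e-08, edgeR).

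The other 9 that rose had log2 fold changes from 1.01 to 1.53. They lay nearest to OTOF, LEPROTL1, TNS3, LAMA3, LOC101926892, FRYL, ZCCHC2, NEXN-AS1 and MOGAT1, and the FRYL member is an AluY. Of these, 4 lost the call when 1 library was left out. MOGAT1 was at 0.87 and LOC101926892 at 0.82 without replicate 1 of untreated WT cells and at 0.71 and 0.78 without replicate 2 of IFN treated WT cells, and NEXN-AS1 was at 0.86 and 0.96. MOGAT1 at 1.17 and LEPROTL1 at 1.27 did not pass without replicate 2 of untreated WT cells, nor did LEPROTL1 at 1.18 without replicate 2 of IFN treated WT cells. All 12 also rose with IFN in USP18KO cells, where no library is shared with the WT comparison, with a median log2 fold change of 3.30 against 1.20 in WT cells. The core of the interferon-stimulated response element (ISRE), the site bound by IRF9 with its partners, was searched as GAAANNGAAA on both strands in hg38. It stood in the central 200 bases of 1 of the 12 and anywhere in the window of 5. The 3 that fell were nearest to IQGAP2, MIR5100 and BICD2, with log2 fold changes of -1.60, -1.34 and -1.005. Their levels were low, at most 6.71 CPM, and all 3 lost the call in at least 3 of the 4 fits that left out a library.

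In USP18KO cells the same treatment changed many more. Here 406 Alu regions rose (6.75%) and 205 fell (3.41%), where 7.14% of all regions rose and 4.28% fell. Of regions over 3000 bp from a TSS, where most Alu members lie, 7.90% rose and 4.91% fell. The median log2 fold change was -0.01 for both Alu and all regions, with quartiles of -0.41 and 0.42 for Alu regions. At an unadjusted p under 0.05, 872 of the 6015 tested Alu regions had higher and 840 lower values. Of all 123276 tested regions, 20684 had higher and 19243 lower values. With libraries scaled by the sum of counts in place of TMM, the split was 337 higher and 328 lower, and the median of all regions moved by -0.13. The largest rise by fitted value was at an AluSx1 upstream of ALDH3A2, a fatty aldehyde dehydrogenase (chr17:19607292-19608292). It had 0.175 and 0.0962 CPM, or 2 and 1 counts, in untreated and 4.44 and 2.25 CPM in IFN treated USP18KO cells. The ratio of 74 to 3 counts, corrected for depth, was 24.6 with an exact 95% interval of 8.09 to 122 that covers counting error only. Untreated WT cells had 1.34 and 1.27 CPM there.

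The AluSq2 near OR4D9 followed, with 1.05 and 1.54 CPM in untreated and 26.3 and 25.4 CPM in IFN treated USP18KO cells. The groups stood far apart, at a log2 fold change of 4.32 (SE 0.23, adjusted p = 3.8e-30, edgeR), or 20.0-fold. The third was an AluSz near the small nucleolar RNA gene SNORD157, within the ribosomal protein gene RPL28 in GENCODE (chr19:55398256-55399256). It rose from 3.49 and 5.2 to 55.0 and 75.2 CPM, a log2 fold change of 3.91 (SE 0.16, adjusted p = 4.6e-37, edgeR). The largest falls were smaller. An AluJr upstream of PWWP2B, a chromatin protein gene (chr10:132390087-132391087), went from 25.9 and 28.6 to 5.50 and 5.91 CPM, a fall of 2.25 on the log2 scale (SE 0.17, adjusted p = 5.7e-20, edgeR). In untreated and treated WT cells this member stood at 4.65 to 7.90 CPM, close to its level in treated USP18KO cells. The next falls were at an AluJr near LHX3 (-2.22) and an AluYk4 upstream of PRL (-2.03).

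Of the members with an ISRE core in the centre, the 5 with the largest rise with IFN in USP18KO cells and a mean of at least 30 counts are described here. Since they were chosen for that rise, it is a description. None of the 5 passed the test between the untreated genotypes (edgeR adjusted p from 0.13 to 0.94). The FRYL AluY (chr4:48674588-48675588) had 5.59 and 4.72 CPM in untreated and 65.9 and 65.2 CPM in IFN treated USP18KO cells, and 3.93 and 3.90 against 9.22 and 8.00 CPM in WT cells. Its log2 fold change in USP18KO cells was 3.66 (SE 0.15, adjusted p = 1.2e-37, edgeR). The NASP AluJb, in an intron of a histone chaperone gene (chr1:45586080-45587080), went from 2.79 and 2.69 to 33.9 and 35.8 CPM, a rise of 3.66 (SE 0.19, adjusted p = 3.0e-30, edgeR). In WT cells the same member stood at 2.17 and 1.45 CPM before and 2.48 and 3.59 CPM after IFN, which did not pass the test (adjusted p = 0.40, edgeR).

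The YME1L1 AluJb went from 3.05 and 2.89 to 40.8 and 38.0 CPM, the CSRNP1 AluSq from 0.873 and 1.15 to 13.0 and 12.4 CPM and the NIPA2 AluSx3 from 0.349 and 0.866 to 10.1 and 7.32 CPM in USP18KO cells. Their log2 fold changes were 3.72, 3.64 and 3.85, and in all 3 the treated libraries stood above the other 6. These 3 windows are chr10:27134073-27135073, chr3:39169164-39170164 and chr15:22817950-22818950 in that order. The NIPA2 member lies in an intron of NIPA1, a magnesium transporter gene, and the CSRNP1 member upstream of its gene. YME1L1 encodes a mitochondrial protease and CSRNP1 a nuclear protein induced by AXIN1.

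**Figure D3:**
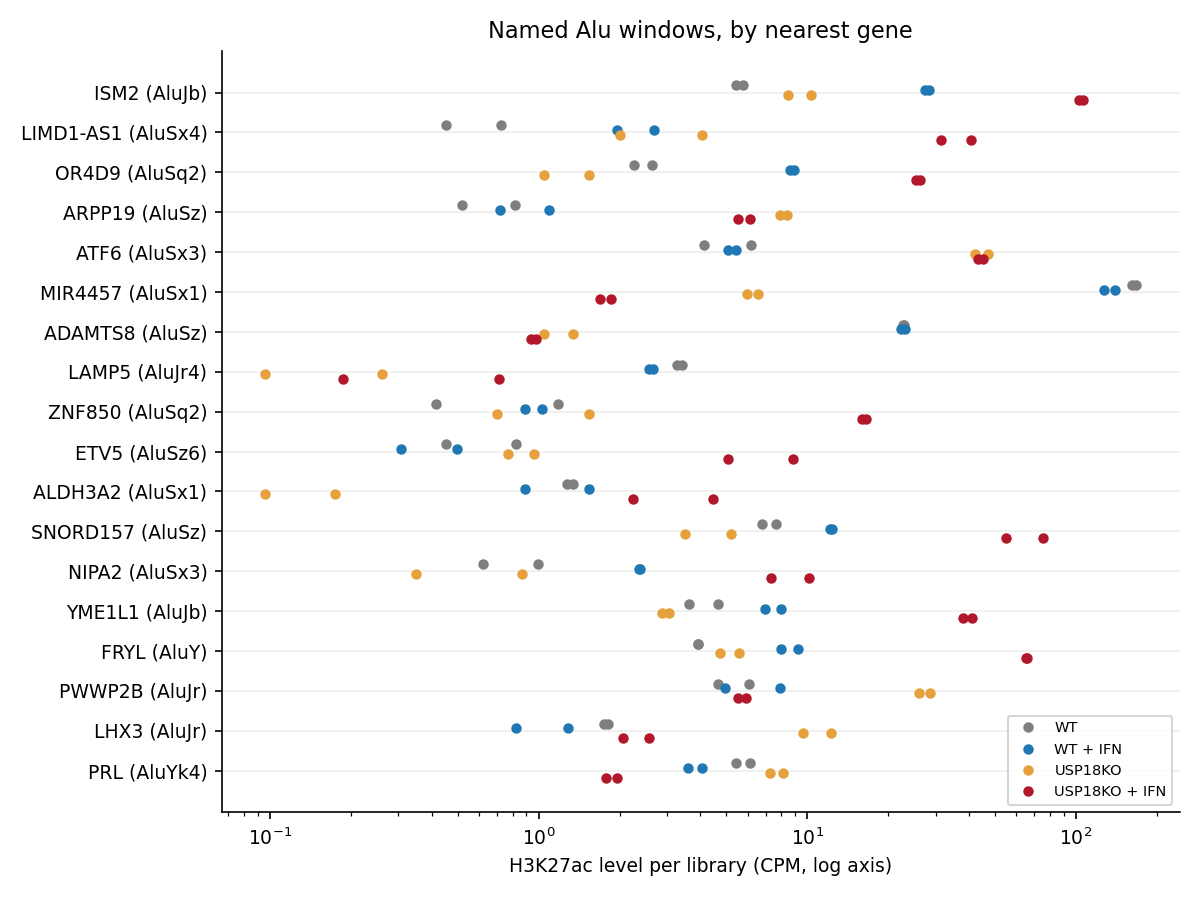
H3K27ac level of 18 named Alu windows in each of the 8 libraries. The x axis is CPM on a log scale, each row is 1 window labelled by its nearest gene and repeat name, and each group has 2 points. The rows from ISM2 to OR4D9 rise with IFN in both genotypes, those from ARPP19 to LAMP5 differ between the untreated genotypes, those from ZNF850 to FRYL are highest in IFN treated USP18KO cells, and the last 3 are lower with IFN in USP18KO cells.

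Across the members, an ISRE core in the centre went with a rise. The core was found in the central 200 bases of 299 Alu regions (4.39%) and of 5.43% of all regions. Of 274 tested members with the core, 70 rose and 5 fell with IFN in USP18KO cells (25.5% and 1.82%), against 5.85% and 3.48% of the 5741 without it. Among all regions with the core, 37.0% rose. The median log2 fold change of the Alu regions with the core was 0.50, and that of all regions with the core was 0.73. In WT cells 1 of the 274 rose (0.365%), and 2.78% of all regions with the core did. The remaining 336 Alu regions that rose had no core in the centre. With the whole window searched, 169 of the 406 that rose (41.6%) and 22 of the 205 that fell (10.7%) held a core, and 18.6% of all Alu windows did.

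The bases between the GAAA repeats differed between Alu and other regions. A core in which they were only A or G, as in the GAAAAAGAAA of an A-rich tail, made up 53.2% of the Alu regions with a match and 29.9% of all regions with a match. Of 147 tested members whose cores were all of this kind, 24 rose and 5 fell (16.3% rose). Of 127 members with a C or T between the repeats, 46 rose (36.2%), and none fell by edgeR's call rule, with 4 lower at an unadjusted p under 0.05. The same shares over all regions were 21.3% and 43.3%. Where the strand of the Alu could be read from its landmarks, 139 matches with A and G alone ran on the Alu strand and 6 on the opposite strand. For matches with a C or T the counts were 68 and 22. Of those on the Alu strand, 45 and 16 lay within 25 bp of an A run. The A run is itself among the landmarks used to read the strand, so these strand counts are not independent of a nearby A run. They cannot show that the matches came from an A-rich tail. A match is a description of the sequence and does not show that a factor was bound.

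Other motifs searched on both strands of the same 200 bases were AP-1 (TGANTCA), C/EBP (TTGCNNAA), PU.1 (GAGGAAGT), NF-kB (GGGANTTCC) and the composite Chop site (TTGCATCA). AP-1 was found in 16.3% of Alu and 12.9% of all regions, and C/EBP in 14.4% and 16.4%. PU.1, the lineage factor of monocytes, had a match in 1.92% of Alu and 6.4% of all regions, and NF-kB in 0.161% and 1.02%. The Chop site, which overlaps the C/EBP letters in part, was in 3.76% of Alu and 1.88% of all regions, with 6.60% in AluJ. With the untreated genotypes compared, 25 of 233 tested Alu regions with the Chop site were higher in USP18KO cells (10.7%) and 25 were lower, where 3.63% of Alu regions without it were higher. Of all regions with the site, 21.6% were higher.

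**Figure D4:**
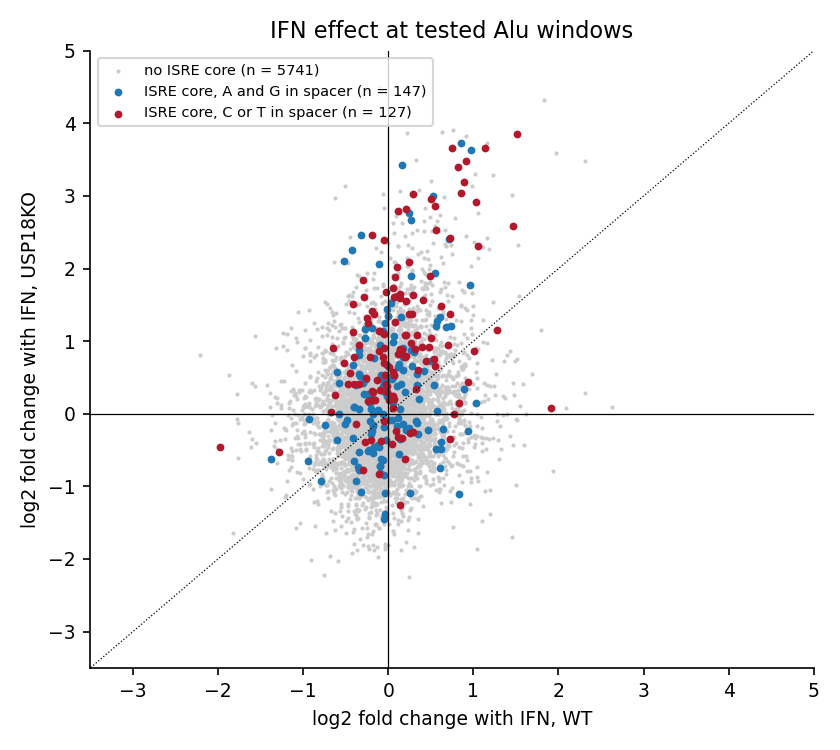
Log2 fold change with IFN at 6015 tested Alu windows in WT cells (x axis) and USP18KO cells (y axis), 1 point per window. Grey points have no ISRE core in the central 200 bases, and coloured points have one, with only A and G (147 windows) or with a C or T (127 windows) between the GAAA repeats. Coloured points reach above 3 on the y axis and stay mostly under 1 on the x axis, and the dotted line marks equal effects.

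The difference of the IFN effects between the genotypes was tested directly as a contrast of the same fit. It was positive at 285 Alu regions (4.74%) and negative at 115 (1.91%), where 4.66% of all regions were higher and 2.51% lower. Regions over 3000 bp from a TSS were higher in 5.09% and lower in 2.83%. For Alu regions the split by the sum of counts was 222 and 200. Among the 274 tested members with an ISRE core, 46 were positive and 3 negative (16.8% and 1.09%), against 24.9% and 0.707% of all regions with the core. The largest positive difference was at the ALDH3A2 AluSx1 (4.61, SE 0.79, adjusted p = 4.1e-06, edgeR), which rests on 3 counts in untreated USP18KO cells. The AluSq2 within ZNF850, a zinc finger gene, in GENCODE (chr19:36741515-36742515), had 16.5 and 16 CPM in IFN treated USP18KO cells and 0.413 to 1.54 CPM in the other 6 libraries, a difference of 3.65 (SE 0.63, adjusted p = 5.2e-06, edgeR). An AluSp in JPX, a noncoding RNA gene (chrX:73955438-73956438), had 5.41 and 4.41 CPM in IFN treated USP18KO cells. The others had at most 1.09 CPM, or 3 to 12 counts, so it passed the filter on low counts only through the IFN treated USP18KO libraries. Without replicate 2 of untreated WT cells, both the ZNF850 and the JPX difference lost the call, with log2 differences of 2.68 and 2.45. The most negative differences were at the PWWP2B AluJr (-2.50), an AluSp near GRID1 (-2.14) and an AluSz in PECAM1, an adhesion molecule gene (-1.97). The GRID1 difference lost the call in 4 of the 8 fits without 1 library, those without replicate 1 of each group, with values from -2.03 to -1.70.

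Between the untreated genotypes, Alu regions were lower in USP18KO cells more often than higher. By the call rule 235 were higher (3.91%) and 746 lower (12.4%), where 5.66% of all regions were higher and 10.8% lower. The median log2 fold change was -0.20 for Alu and -0.02 for all regions. Regions over 3000 bp from a TSS, where most Alu members lie, were higher in 5.17% and lower in 12.7%, with a median of -0.14. The size of this split moved with the scaling. It was 155 higher and 968 lower by the sum of counts, 328 and 559 with offsets for GC content, and 307 and 525 when regions over 3000 bp from a TSS were scaled and tested alone, where the Alu median was -0.05. Fewer Alu regions were higher than lower under each of these settings.

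The largest fall was at an AluSx1 between genes on chromosome 5 (chr5:1313396-1314396, nearest RefSeq start MIR4457). It was among the 5 highest Alu regions of untreated WT cells, at 161 and 167 CPM, and had 6.55 and 5.97 CPM in untreated USP18KO cells. The fall was 4.71 on the log2 scale (SE 0.12, adjusted p = 6.7e-52, edgeR), or 26.1-fold. With IFN it stood at 139 and 127 CPM in WT and at 1.86 and 1.69 CPM in USP18KO cells, and the lowest WT library was far above the highest USP18KO library. An AluJr in the same locus (chr5:1305750-1306750) went the same way, from 54.4 and 57.5 CPM in WT to 2.40 and 1.88 CPM in USP18KO cells with IFN (-4.70). The next falls in untreated cells were at an AluSz near ADAMTS8, a secreted metalloprotease gene, from 22.7 and 23 to 1.05 and 1.35 CPM (-4.25), and at an AluJr4 near LAMP5, from 3.41 and 3.27 to 0.262 and 0.0962 CPM. The latter held 3 and 1 counts in USP18KO cells, and its depth-corrected ratio was 0.0549 (exact 95% interval 0.0146 to 0.147, counting error only).

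Large rises were at an AluSz in an intron of ARPP19, a regulator of protein phosphatase PP2A, and at an AluSx3 upstream of ATF6, a sensor of endoplasmic reticulum stress. The ARPP19 member (chr15:52551996-52552996) had 0.517 and 0.817 CPM in WT and 8.38 and 7.89 CPM in USP18KO cells, a log2 fold change of 3.57 (SE 0.33, adjusted p = 7.4e-16, edgeR). The ATF6 member (chr1:161764619-161765619) went from 4.13 and 6.17 to 41.9 and 46.9 CPM (3.09, SE 0.15). IFN moved neither past the call in either genotype, and at ATF6 the levels with IFN were 5.05 and 5.44 CPM in WT and 43.2 and 45.1 CPM in USP18KO cells.

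With IFN in both genotypes, 513 Alu regions were higher (8.53%) and 841 lower (14%) in USP18KO than in WT cells, where 11.3% of all regions were higher and 13.4% lower. Regions over 3000 bp from a TSS were higher in 10.3% and lower in 15.7%. This comparison shares its libraries with those of IFN within each genotype. By the sum of counts the split was 304 and 1320. With regions over 3000 bp from a TSS scaled alone it turned, to 669 higher and 591 lower. The largest rises were at the ZNF850 AluSq2 (4.07, SE 0.28, adjusted p = 1.5e-22, edgeR), at an AluSz6 in ETV5, an ETS factor gene (4.06), and at the LIMD1 AluSx4 (3.96). The ETV5 member (chr3:186067080-186068080) had 5.06 and 8.83 CPM in IFN treated USP18KO cells and 0.308 to 0.960 CPM, or 3 to 11 counts, elsewhere. It passed the filter on low counts only through the IFN treated USP18KO libraries. Of the 274 tested members with an ISRE core, 57 were higher and 18 lower (20.8% and 6.57%), against 33.3% and 7.47% of all regions with the core.

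**Figure D5:**
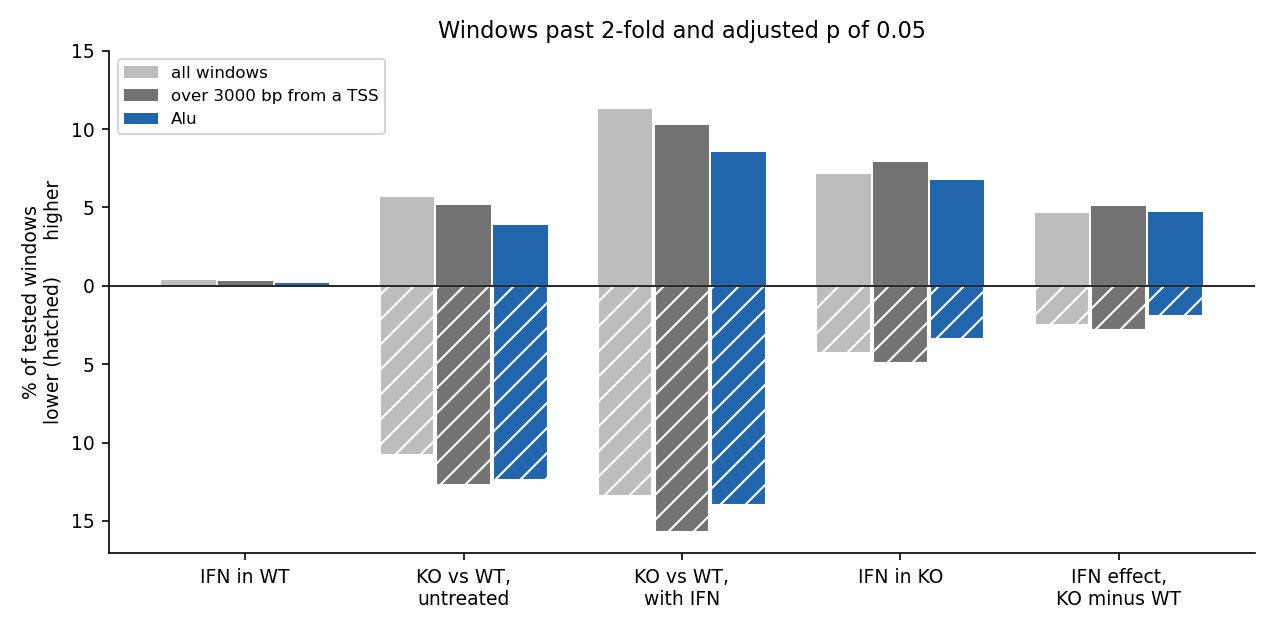
Percent of tested windows called higher (solid, above 0) or lower (hatched, below 0) in the 5 comparisons, for all windows, windows over 3000 bp from a TSS and Alu windows. KO is USP18KO. The Alu bars reach 3.91% and 12.4% for the untreated genotypes and 6.75% and 3.41% for IFN in USP18KO cells.

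The subfamilies differed in their counts, given here as descriptions. Of the 14 names with at least 100 tested members, AluSp had the highest share that rose with IFN in USP18KO cells, 42 of 383 (11.0%), with 15 that fell. AluSq had 13 and 2 of 123 (10.6% rose) and AluSq2 32 and 11 of 312 (10.3% rose), close to AluSp. Of all regions, 7.14% rose and 4.28% fell. AluSg had 18 and 3 of 206, AluJb 54 and 23 of 731 and AluY 38 and 14 of 532. AluSx had 33 and 18 of 468, AluSx3 12 and 5 of 177, AluSc 9 and 3 of 145, AluSx1 26 and 11 of 549 and AluJo 20 and 14 of 389. AluSz had 33 and 27 of 697 and AluSz6 13 and 13 of 261, and AluJr, with 16 and 24 of 385, was the only one of the 14 with more falls than rises. By class, 59 of 689 AluY rose (8.56%), 246 of 3648 AluS (6.74%), 92 of 1584 AluJ (5.81%) and 9 of 88 monomers. Between the untreated genotypes, AluJ had 52 higher and 227 lower (14.3% lower), AluS 151 and 421 (11.5%) and AluY 30 and 89 (12.9%).

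Location also went with the counts. Between the untreated genotypes 16% of intergenic and 9.98% of intronic Alu regions were lower in USP18KO cells, and 3.46% and 4.21% were higher. Outside repeats the shares lower were 13.9% of intergenic and 10.7% of intronic regions, so the same order was seen there. For IFN in USP18KO cells the shares that rose were 6.72% and 6.77%. Of the 406 Alu regions that rose with IFN in USP18KO cells, 323 had another region within 5000 bp and 234 (57.6%) had one that also rose. In 137 of these the neighbour carried more signal than the Alu region. Of the other 8391 regions that rose, 5838 had another region within 5000 bp and 3662 (43.6%) had one that also rose. Both percents are of all regions that rose, with or without a neighbour. A 1000 bp window takes in H3K27ac of its surroundings, and 33.1% of Alu windows overlapped another window, so the signal is not that of the element alone. The other repeat classes gave 12.5% that rose and 4.68% that fell for LINE-1 and 8.88% and 4.51% for L2 and MIR.

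Of 111 listed ISGs, 35 Alu regions had one as nearest gene within 50000 bp. Among all 123276 tested regions 554 had such a neighbour. Among the 6015 tested Alu regions 31 did, a share no lower than that of all regions. With IFN in USP18KO cells 5 of these 31 rose and 2 fell, while 257 of all 554 tested regions with the same kind of neighbour rose and 17 fell. None of the 35 had an ISRE core in the centre of its window. The AluY in the first intron of NMI, a STAT-interacting protein (chr2:151288681-151289681), lay 735 bp from the TSS and had 60.1 and 58.9 CPM in untreated WT and 74.1 and 71.6 CPM in IFN treated WT cells. In USP18KO cells it had 74.3 and 76.4 CPM before and 170 and 160 CPM after IFN (log2 fold change 1.13, SE 0.08, adjusted p = 7.0e-21, edgeR), and by the sum of counts it stood just under the fold threshold at 0.997. An AluSx upstream of TNFSF10, the gene of the death ligand TRAIL (chr3:172540981-172541981), was at 4.24 and 3.0 CPM in untreated WT cells. It went from 0.436 and 0.866 to 4.17 and 5.16 CPM in USP18KO cells (2.84, SE 0.37), so that the treated level was near that of WT cells. The other rises were at TOR1B (1.66), DDX58, which encodes the RNA sensor RIG-I (1.57), and PNPT1 (1.42), and the falls at SAMHD1 (-1.22) and TRIM14 (-1.03). The DDX58 member had 5 to 9 counts outside IFN treated USP18KO cells and passed the filter on low counts only through that group. The TRIM14 value was under the fold threshold without replicate 2 of untreated (-0.88) or of IFN treated (-0.80) USP18KO cells. The DDX58 value lost its call without replicate 2 of IFN treated USP18KO cells (edgeR adjusted p = 0.060).

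The 5 Alu regions with the highest level in untreated WT cells were ones that IFN in WT cells did not move past the call. An AluSz at chr1:39803684-39804684 had 211 and 206 CPM in untreated WT and 88.0 and 84.7 CPM in untreated USP18KO cells, a log2 fold change of -1.27. An AluSq4 at chr1:40338785-40339785 had 190 and 197 CPM in WT and 329 and 329 CPM in USP18KO cells (0.77). The CAP1 AluJo had 168 and 178 CPM in WT and 164 and 172 CPM in USP18KO cells, and the AluSz in SLC2A1, the glucose transporter GLUT1, had 164 and 173 CPM and 176 and 171 CPM. Of the 5, 4 lay on chromosome 1, and the other was the MIR4457 AluSx1.

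The promoters of genes that act on Alu RNA, within 1000 bp of the TSS, were examined for comparison. Of 111 listed ISGs 105 had a tested promoter region, and IFN raised 47 in WT and 98 in USP18KO cells. Of 16 listed genes for editing and sensing of double-stranded RNA, 14 had a tested promoter region. IFN raised 8 in WT and 8 in USP18KO cells, among them ADAR (1.15 and 2.11 on the log2 scale), IFIH1, which encodes MDA5 (1.37 and 2.82), EIF2AK2, which encodes PKR (1.52 and 2.81), and OAS1, OAS2 and OAS3 of the RNase L pathway (1.12, 2.22 and 2.84 in WT cells). The ADAR promoter had 42.0 and 39.8 CPM in untreated and 92.2 and 89.5 CPM in treated WT cells, and 48.2 and 37.8 CPM against 190 and 182 CPM in USP18KO cells. The difference of the IFN effects was called for 6 of the 14. Of 17 genes for transcription and binding of Alu RNA, 15 were tested. These are subunits of RNA polymerase III and its factors TFIIIB and TFIIIC, the signal recognition particle proteins SRP9 and SRP14, and SSB, the La protein. The test called 1 of them with IFN, SSB in USP18KO cells, which went from 5.59 and 6.83 to 42.3 and 41.9 CPM (2.76). Of 25 genes for silencing and restriction of retroelements 22 were tested. IFN raised 1 in WT cells (APOBEC3F) and 6 in USP18KO cells (MOV10, SAMHD1, ZC3HAV1, APOBEC3A, APOBEC3F and APOBEC3G). The lists overlap, since these 6 genes and ADAR, IFIH1, EIF2AK2, OAS1, OAS2 and OAS3 are also among the listed ISGs. Of all tested regions in promoters, exons or CpG islands, IFN raised 0.354% in WT and 4.10% in USP18KO cells. None of the tested genes of the 3 lists fell in any comparison within or between genotypes.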

How the data were processed

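H3K27ac ChIP-seq of THP-1 cells was analysed in 8 libraries, 2 for each of 4 groups, and 8 input libraries were not analysed here. Reads were aligned to hg38 and tags counted around merged ATAC-seq peaks, with Bowtie2, HOMER and DESeq2 named in the submitters' processing notes. The table deposited by the authors holds estimated counts of raw tags per 1000 bp window, and 52.2% of its values were whole. No columns of the authors' own comparisons were used, and 0 value columns were left unmapped. Values were rounded to whole counts, giving 9082433 to 12971831 per library. Counting error is therefore small for windows with many tags and large for those near 10.

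Regions in which 2 or more libraries reached 10 counts were tested with edgeR 4.0.16 (limma 3.58.1, R 4.3.3), with TMM scaling, 1 mean per group and the quasi-likelihood test over all 8 libraries, which share 1 estimate of the spread. P-values were adjusted by Benjamini-Hochberg over the 123276 tested regions. A call needed a log2 fold change beyond 1 in either direction with an adjusted p under 0.05. The labels do not say that replicates came from separate cultures, so p-values measure the spread between these libraries, which may be technical. On 20000 simulated regions for IFN in WT cells, 143 of 200 regions changed 3-fold were called in the right direction, with 4 unchanged regions called. Of the changed regions with a mean of at least 30 counts, 81 of 82 were called. Every simulated region had the same spread, a coefficient of variation of 0.0737, and a mean taken from tested regions. Real regions differ in spread and the call begins at 2-fold, so these counts do not carry over to the data.

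Members came from the deposited annotation. Named regions were the 3 largest rises and 3 largest falls of each comparison among called Alu regions with a mean of at least 10 counts whose groups did not overlap, the 5 highest in untreated WT cells, and called regions whose nearest gene within 50000 bp was a listed ISG. The regions called for IFN in WT cells and the 5 with an ISRE core were named after their values were seen. The members and lists were chosen with earlier results of these data known. Window sequences, 1 named region and the names behind 1 sum are not reported here. Motifs were searched in hg38 and gene positions taken from GENCODE release 44. Alternatives were DESeq2 1.42.0, other scalings, filters, thresholds, region sets, a replicate block and leaving out each library.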

Additional observations from a re-analysis of the deposited data

Results flagged for a closer look

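The difference of the IFN effects between USP18KO and WT cells was tested as a contrast in edgeR. It was past the threshold at 285 Alu regions with a larger log2 effect in USP18KO cells (4.74%) and at 115 with a smaller one (1.91%). Over all regions the shares were 4.66% and 2.51%, so the Alu shares were near those of the table. Over regions more than 3000 bp from a TSS they were 5.09% and 2.83%, both above the Alu shares. By the sum of counts the Alu split was 222 and 200. Of the named members, the difference was 4.61 at the ALDH3A2 AluSx1, 3.65 at the ZNF850 AluSq2 and 3.64 at the JPX AluSp. It was -2.50 at the PWWP2B AluJr, -2.14 at the GRID1 AluSp and -1.97 at the PECAM1 AluSz. The JPX member passed the filter on low counts only through the IFN treated USP18KO libraries. At PWWP2B the untreated USP18KO libraries stood above the other 6, while at GRID1 and PECAM1 the IFN treated USP18KO libraries stood below the other 6.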

How the results depend on the processing

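Counts of Alu regions are given as higher and lower. Without a fold threshold, at an adjusted p under 0.05, they were 26 and 8 for IFN in WT cells, 537 and 1200 for the untreated genotypes and 667 and 573 for IFN in USP18KO cells. The same setting gave 880 higher for the genotypes with IFN and 238 lower for the difference of the IFN effects. By the sum of counts the untreated genotypes had 155 higher, the genotypes with IFN 304 and 1320, IFN in USP18KO cells 328 lower and the difference 200 lower. The median of all regions moved under that scaling by -0.14, -0.28, -0.13 and -0.13 in that order. DESeq2 gave 175 higher for the difference and 0 lower for IFN in WT cells, and an adjusted p under 0.01 also gave 0 lower there. The smaller counts at a stricter threshold, and the larger ones at none, follow from the settings, and the cause of the others was not tested.

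Leaving out 1 library gave 9 to 11 higher and 0 to 2 lower for IFN in WT cells, 209 to 232 and 630 to 689 for the untreated genotypes, and 446 to 492 and 752 to 841 for the genotypes with IFN. It gave 367 to 408 and 184 to 247 for IFN in USP18KO cells and 223 to 262 and 91 to 135 for the difference. The replicate numbers did not pair the libraries, with correlations of deviations from 0.00117 to 0.0463. With the replicate block the counts were 12 and 3, 232 and 745, 510 and 843, 407 and 208, and 286 and 119. Restricted to windows at least 90% unique, they were 12 and 3, 227 and 732, 503 and 827, 398 and 204, and 277 and 114. No value changed sign past its threshold. Of the values for named regions, 471 kept their call and 36 lost it, and 8 had no adjusted p in DESeq2. A window near 10 counts cannot show a small change at this depth.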

Other observations

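Several of the strongest Alu members lay close to one another on chromosome 1 and did not move together. The AluSz at 39803684 to 39804684 had 42.9 and 37.1 CPM in IFN treated USP18KO cells, below its level in the other 6 libraries. The AluSq4 at 40338785 to 40339785 had 469 and 432 CPM there, above its level in the other 6, and the CAP1 AluJo at 40050942 to 40051942, between them, had 151 and 155 CPM.

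Of the 406 Alu regions that rose with IFN in USP18KO cells, 79 were also higher in WT cells at an unadjusted p under 0.05. Among all 6015 tested Alu regions 210 were. Over the 406, the median log2 fold change with IFN was 0.20 in WT and 1.52 in USP18KO cells. The latter value was selected by the call and is a description.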
